A study of Mus musculus with 34 samples.

Results

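The nuclear receptor genes described here are 39 mouse genes taken by name, out of 21887 protein-coding genes of the nuclear chromosomes in the annotation. Their peaks were found in 10 lists of chromatin immunoprecipitation peaks (ChIP-seq, which sequences DNA pulled down with a protein of interest). A peak was given to the protein-coding gene body nearest to its centre, up to 50 kb away (build mm10), and a centre inside several gene bodies counted for each. Rev-erb and ROR genes, the receptors best known for their link to the circadian clock, are not among the members.

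Nuclear receptors are transcription factors that bind DNA through a zinc-finger domain and, in most members, carry a pocket for a small lipid-soluble ligand such as a steroid, retinoic acid, thyroid hormone, a fatty acid or an oxysterol. Steroid receptors mostly act as homodimers, whereas many of the others pair with a retinoid X receptor. With ligand they recruit coactivators, and without it several recruit corepressors. In β-cells receptors of this family are known for effects on insulin secretion, cell mass and lipid and glucose metabolism.

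All samples came from Beta-TC6, a mouse β-cell line, after a forskolin pulse of 1 h at 10 µM that synchronised the cells. ChIP-seq was made for p65 (the RELA subunit of NF-κB) and PDX1 (a homeodomain factor of β-cells) in wild-type (WT) or Bmal1-/- cells, each without and with IL-1β (label IL1B), an inflammatory cytokine, used at a dose and for a time that the labels do not state. SIN3A, which holds together a corepressor complex with histone deacetylases, was also examined in WT cells with control siRNA (siCon) or Pdx1 siRNA (siPdx1). The labels list 3 samples per p65 or PDX1 group, 2 per SIN3A group and 6 inputs, while the files hold 1 peak list per group. Bmal1-/- cells lack an activator of the core clock, and the labels do not say whether they are 1 clone.

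No list carries a value per replicate, so no comparison below has a test between conditions or an error over samples, and intervals are Wilson 95% intervals that cover counting error only. Tag counts are the authors' normalised tag counts, per 10 M sequenced tags. Where counts of several lists stand together, they are not read as a difference in signal. The peak lists hold no expression values, so neither the cell type nor the loss of Bmal1 or Pdx1 was checked. The p65 and PDX1 lists came from 53.5 to 63.9 M tags and the SIN3A lists from 31.0 and 35.0 M. They held from 173 peaks (p65, Bmal1-/- control) to 40028 (PDX1, WT control). Peaks of the Bmal1-/- lists of PDX1 were 472 bp (control) and 418 bp (IL-1β) wide, and those of p65 in Bmal1-/- control cells 479 bp, against 206 to 231 bp in the other lists. For the samples titled PDX1 with IL-1β the antibody field of the labels says p65, and they are taken here by title.

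Of the 39 receptor genes, 37 had a peak in at least 1 list, with 551 assignments of a peak to a receptor gene in all. The share of all genes with a peak in any list, or in most lists, was not computed. Counts over the lists are therefore not read as a trait of receptor genes. Nr0b1 and Nr1i3 had none. Thrb, Esr1 and Esrrg had a peak in every list except that of p65 in Bmal1-/- control cells, which had none at any member. Receptors thus ranged from genes listed for all 3 antibodies to genes listed for a single antibody, such as Esrra and Nr1h2, which had SIN3A peaks alone.

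In WT control cells p65 had a peak at 7 of 39 receptor genes (17.9%), while 8.99% of all protein-coding genes had one. With IL-1β the count was 30 (76.9%), against 45.9% of all genes. In Bmal1-/- control cells p65 had a peak at 0 of 39, which allows a share of up to 7.69% by the limit of 3 counts (the Wilson upper bound is 8.97%), and 0.672% of all genes had one. With IL-1β in Bmal1-/- cells it was 25 (64.1%), against 32.8%.

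PDX1 had a peak at 29 receptor genes in WT control cells (74.4%), against 41.9% of all genes, and at 27 with IL-1β (69.2%), against 41.4%. In Bmal1-/- cells PDX1 had a peak at 10 receptor genes in control cells (25.6%), against 16.5% of all genes, and at 10 with IL-1β (25.6%), against 16.1%. SIN3A had a peak at 24 receptor genes (61.5%) with siCon, against 47.5% of all genes, and at 24 with siPdx1, against 50% of them. Each of these shares except the 0 was above the background of all genes. In several lists, though, the Wilson interval of the receptor genes held the share of all genes. These were p65 in WT control cells (8.98 to 32.7), PDX1 in Bmal1-/- cells with either treatment (14.6 to 41.1) and SIN3A with either siRNA (45.9 to 75.1).

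Receptor genes are long, and length moves with these shares. Their median gene length was 47.1 kb, from 3.31 kb (Nr0b2) to 651 kb (Rarb), and that of all genes 17.2 kb. Among the 5201 genes at least as long as the median receptor gene, 78.7% had a p65 peak in WT cells with IL-1β, 79.9% a PDX1 peak in WT control cells and 63.2% a SIN3A peak with siCon. In the other lists the share of such long genes was 21.6%, 1.27% and 59.6% for p65 (WT control, Bmal1-/- control and Bmal1-/- with IL-1β), 80.2%, 42.0% and 40.5% for PDX1 (WT with IL-1β, Bmal1-/- control and Bmal1-/- with IL-1β) and 66.8% for SIN3A with siPdx1. Among the 20 receptor genes of at least that length, 19 had a p65 peak in WT cells with IL-1β (95%, interval 76.4 to 99.1), 19 a PDX1 peak in WT control cells (the same share) and 15 a SIN3A peak with siCon (75.0%, interval 53.1 to 88.8). These 20 genes were above all genes of that length in 7 lists and below them in p65 WT control, p65 Bmal1-/- control and PDX1 Bmal1-/- control. The share of all long genes lay inside the interval of the 20 in each of the 10 lists. The 19 shorter receptor genes had a peak at 11, 10 and 9 in the lists of p65 (WT with IL-1β), PDX1 (WT control) and SIN3A (siCon). The share of all genes shorter than the median receptor gene was not computed, so these counts stand without a background. The part of gene length in the counts was not tested.

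**Figure D1:**
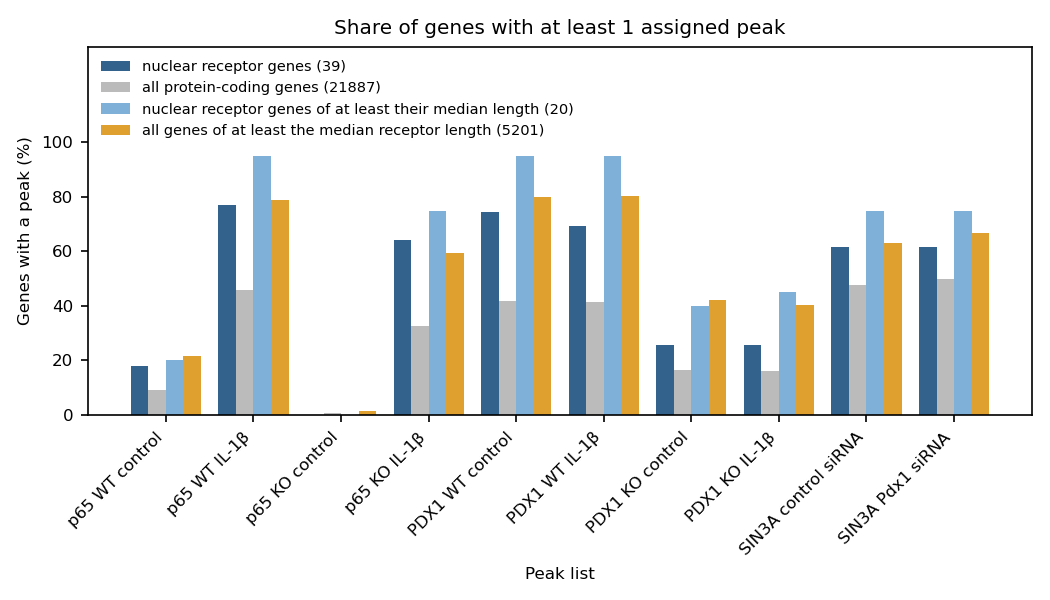
Percent of genes with at least 1 assigned peak in each list, for the 39 receptor genes, all 21887 protein-coding genes, and the 20 receptor genes and 5201 genes of any kind at least as long as the median receptor gene. KO is Bmal1-/-. Receptor genes stand above all genes in 9 lists, and for p65 in WT cells with IL-1β the long receptor genes reach 95% against 78.7% of all long genes. The interval of that 95% (76.4 to 99.1, not drawn) holds the 78.7%. In each of the 10 lists the share of all long genes is inside the interval of the long receptor genes. For p65 in WT control cells, PDX1 in Bmal1-/- cells and SIN3A, the interval of the receptor genes (not drawn) holds the share of all genes.

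Across the 39 genes, Spearman's correlation of gene length with the number of peaks was 0.74 for p65 in WT cells with IL-1β, 0.80 for PDX1 in WT control cells and 0.25 for SIN3A with siCon. The genes share libraries in each list, and the correlation is a description. Rarb, Esrrg and Esr1 together held 35.2% of the p65 peaks at receptor genes in WT cells with IL-1β. For PDX1 in WT cells the genes with the most peaks, Esrrg, Rarb and Esr1 again, held 42.1% (control) and 43.1% (IL-1β).

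**Figure D2:**
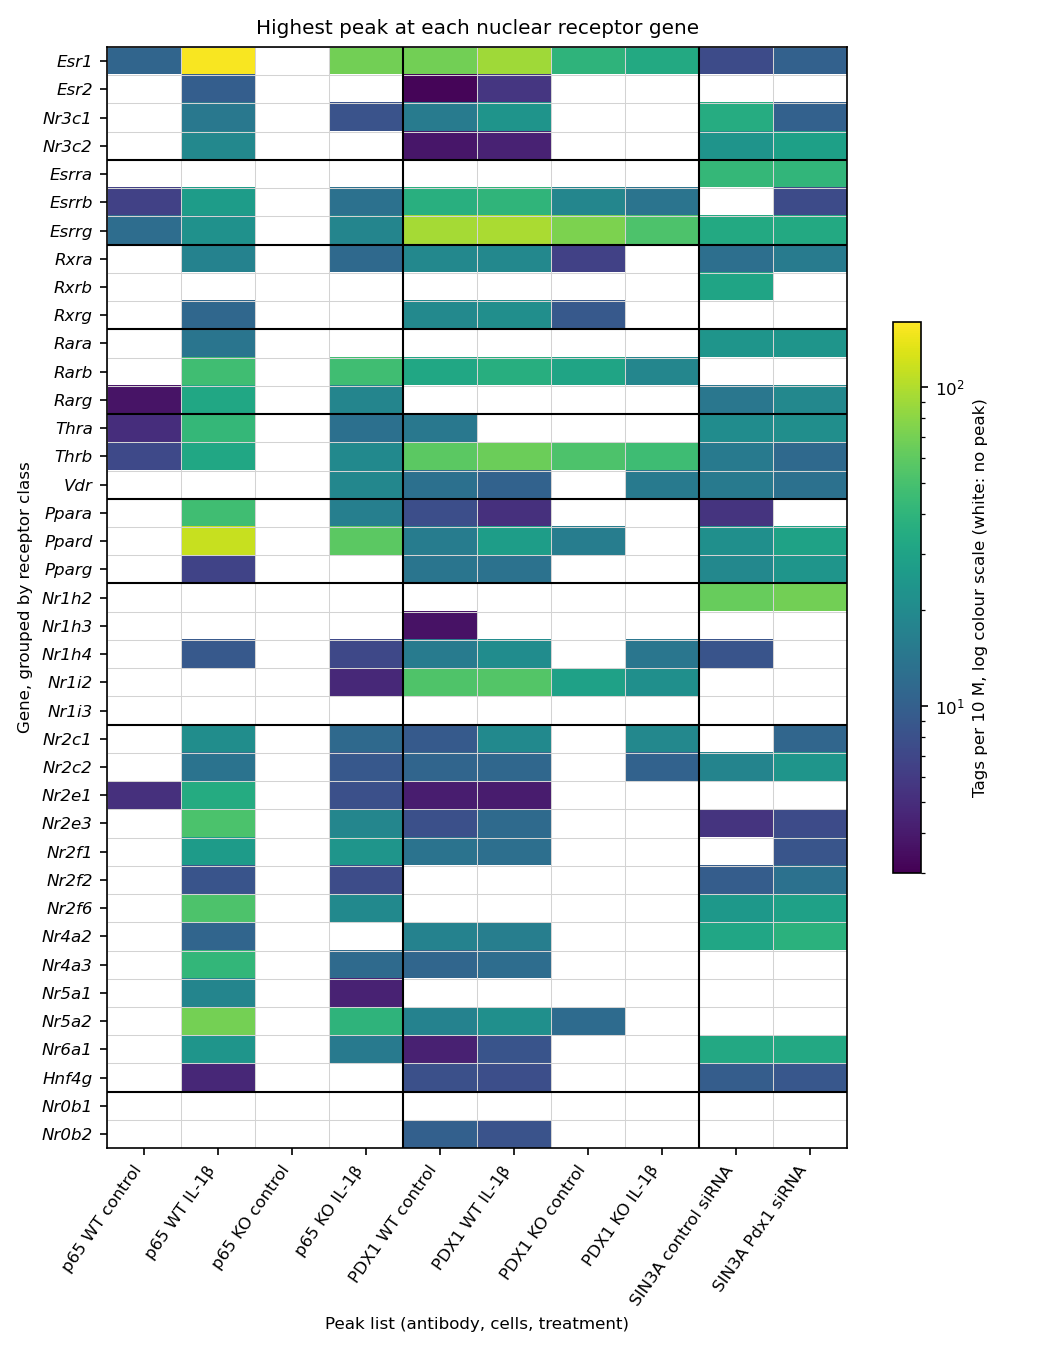
Highest normalised tag count at each of the 39 receptor genes (rows, grouped by class) in each of the 10 lists (columns), on a log colour scale, with white for no peak. KO is Bmal1-/-. The column of p65 in Bmal1-/- control cells is empty, and the Esr1, Esrrg and Thrb rows are filled in the other 9.

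Among the steroid receptors, Esr1, which encodes estrogen receptor α, held the highest p65 peak of all members. It lay inside the gene, 248795 bp from the nearest annotated start, had 154.9 tags in WT cells with IL-1β (rank 301 of 31389 peaks) and 68.7 tags in Bmal1-/- cells with IL-1β (rank 309 of 16162), and was in neither control list. PDX1 had its highest Esr1 peak at the same site, chr10:4958801-4959313, with 68.8 tags in WT control cells, 91.2 in WT with IL-1β, 39.9 in Bmal1-/- control and 33.6 in Bmal1-/- with IL-1β. This site therefore carried PDX1 in all 4 PDX1 lists and p65 in the lists with IL-1β.

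Of the other 4 Esr1 sites listed for both factors, 2 had p65 in WT control cells too. At chr10:4885801-4886394 p65 was listed in WT cells without IL-1β (11.0 tags) and with it (13.6), and PDX1 had 49.2, 47.0, 29.8 and 18.6 tags in WT control, WT with IL-1β, Bmal1-/- control and Bmal1-/- with IL-1β. At chr10:4938471-4939155 p65 had 9.86 tags in WT control cells and 7.47 with IL-1β, and PDX1 32.6, 43.2, 12.5 and 11.1 tags in the same order. The 2 remaining sites, chr10:4589651-4589932 outside the gene and chr10:4847485-4847790 inside it, had p65 in WT cells with IL-1β alone (15.1 and 7.47 tags) and PDX1 in both WT lists. A site is a chain of peaks of any list that overlap by at least 1 bp, so peaks within it need not all overlap each other. In all, Esr1 had 7 p65 peaks in WT cells with IL-1β, 1 in Bmal1-/- cells with IL-1β, and 12 and 15 PDX1 peaks in WT cells without and with IL-1β.

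Nr3c1, which encodes the glucocorticoid receptor, had a site listed for both factors outside the gene, 12963 to 13037 bp from it. There p65 had 14.8 tags in WT and 8.3 in Bmal1-/- cells with IL-1β, and PDX1 23.6 tags in WT cells with IL-1β and no peak in the other lists of PDX1. Its SIN3A peak of 35.4 tags with siCon was at a site absent from the siPdx1 list, where the gene had another SIN3A peak of 10.3 tags. Nr3c2, which encodes the mineralocorticoid receptor, had SIN3A peaks of 23.5 (siCon) and 28.6 tags (siPdx1) near its start and a p65 peak of 19.2 tags in WT cells with IL-1β, with none in Bmal1-/- cells. Esr2, which encodes estrogen receptor β, was likewise listed for p65 in WT cells with IL-1β alone. All 4 steroid receptor genes had a p65 peak in WT cells with IL-1β and 2 of 4 in Bmal1-/- cells with IL-1β, against 45.9% and 32.8% of all genes. These 4 genes are longer than the median receptor gene, and among the 5201 long genes the shares were 78.7% and 59.6%.

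Estrogen-related receptors bind related DNA without a known natural hormone and are known for control of oxidative metabolism. Esrrg held the highest PDX1 peak of all members, inside the gene at chr1:188186665-188187204. PDX1 had 93.2 tags there in WT control cells, 96.8 in WT with IL-1β, 72.5 in Bmal1-/- control (rank 40 of 8339) and 52.9 in Bmal1-/- with IL-1β (rank 68 of 8095). At this site p65 had 12.5 tags in WT control, 17.9 in WT with IL-1β and 14.3 in Bmal1-/- with IL-1β, and SIN3A 5.48 with siCon.

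Esrrg had 20 PDX1 peaks in WT control and 15 in WT cells with IL-1β, and 5 and 4 in Bmal1-/- cells. A further site, chr1:188207226-188207819, had p65 in WT control (6.7 tags) and with IL-1β (8.97) and PDX1 in all 4 lists (40.0, 45.8, 29.8 and 21.9). The SIN3A peak of 33.8 tags (siCon) and 33.7 (siPdx1) lay 58 and 64 bp from an annotated start, apart from the PDX1 sites named. Esrrb had its highest PDX1 peak 10051 to 10125 bp from a start, with 36.7, 40.2, 18.7 and 13.8 tags, in the order WT control, WT with IL-1β, Bmal1-/- control and Bmal1-/- with IL-1β. At that site p65 had 6.51 tags in WT control, 18.1 in WT with IL-1β and 8.12 in Bmal1-/- with IL-1β. Esrra, known as a partner of PGC-1 coactivators in mitochondrial gene control, had SIN3A peaks alone, with 42.2 (siCon) and 41.2 tags (siPdx1) at its start. At the Esrrb site above, SIN3A was listed with siPdx1 alone, at 7.43 tags (rank 13132 of 14653, 4.26-fold over input). Esrrg was thus listed for all 3 proteins, Esrrb for all 3 with SIN3A through that low peak only, and Esrra for SIN3A alone.

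**Figure D3:**
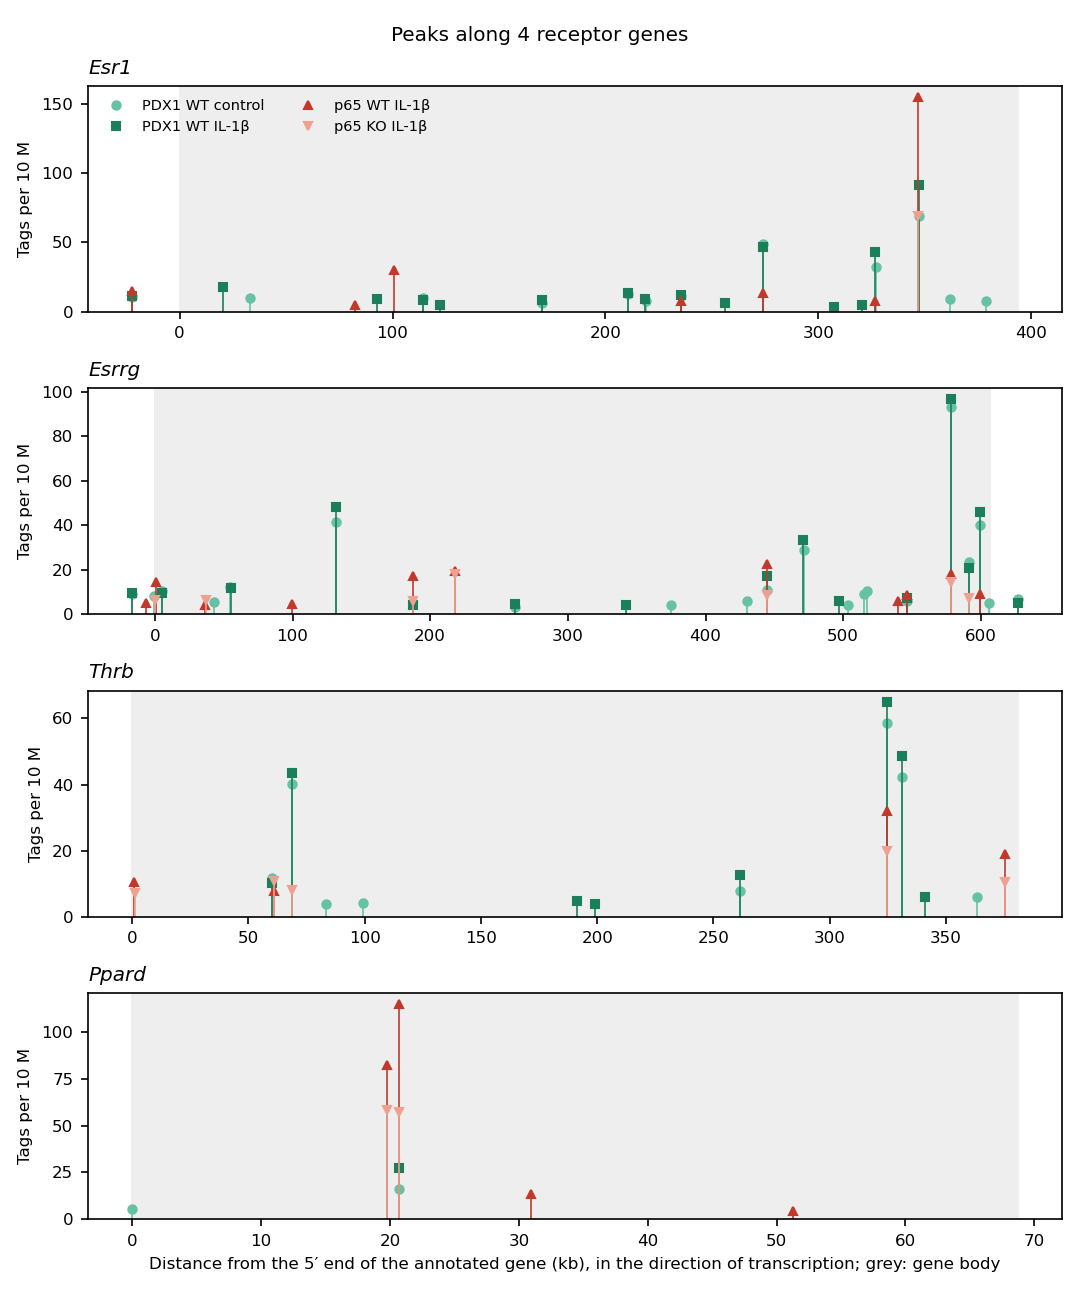
Normalised tag count (tags per 10 M) of each p65 or PDX1 peak in 4 lists against its distance from the 5′ end of the annotated gene in kb, for Esr1, Esrrg, Thrb and Ppard, with the gene body in grey. KO is Bmal1-/-. At Esr1 the p65 peak of 154.9 tags and the PDX1 peak of 91.2 tags stand at 1 position deep in the gene, while the PDX1 peaks of Esrrg and Thrb with over 40 tags carry p65 peaks of fewer tags or none.

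Retinoid X receptors are the shared dimer partners of many other members. Rxra had p65 and PDX1 peaks at the site chr2:27745878-27746350 inside the gene. There PDX1 had 19.3 (WT control), 19.1 (WT with IL-1β) and 6.52 tags (Bmal1-/- control) and p65 17.6 tags in WT and 7.77 in Bmal1-/- cells with IL-1β. Another site inside the gene, chr2:27684085-27684357, was also listed for both factors. At that site p65 had 12.1 tags in WT and 11.7 in Bmal1-/- cells with IL-1β, and PDX1 6.64 in WT cells with IL-1β. PDX1 was not listed at Rxra in Bmal1-/- cells with IL-1β. Rxrg had its highest PDX1 peak 32360 to 32451 bp upstream, with 19.4, 21.4 and 9.13 tags in WT control, WT with IL-1β and Bmal1-/- control cells, and again none in Bmal1-/- cells with IL-1β. Its p65 peaks, up to 11.4 tags, were in WT cells with IL-1β and not in Bmal1-/- cells. Rxrb was listed for SIN3A with siCon alone (30.6 tags).

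Among the retinoic acid receptors, Rarb, the longest member, had 20 p65 peaks in WT and 15 in Bmal1-/- cells with IL-1β. Its highest p65 peak lay inside the gene, 144303 bp from the start in WT cells, with 47.1 tags, and had 47.5 tags in Bmal1-/- cells (rank 691 of 16162, against 2428 of 31389 in WT). PDX1 had 19 and 20 peaks at Rarb in WT cells without and with IL-1β and 3 and 6 in Bmal1-/- cells. The highest had 32.1 tags in WT control, 36.4 in WT with IL-1β, 30.6 in Bmal1-/- control and 18.6 in Bmal1-/- with IL-1β, the WT values at one site and the Bmal1-/- values at another. Rarg, whose p65 peak of 3.72 tags in WT control cells lay 870 bp upstream, had 32.1 tags in WT and 18.2 in Bmal1-/- cells with IL-1β 664 and 669 bp from a start inside the gene. Rara had p65 at 14.0 tags in WT cells with IL-1β, in a stretch shared with the overlapping gene Gm46294, and none in Bmal1-/- cells. Neither Rara nor Rarg had a PDX1 peak in any list.

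Of the thyroid hormone receptors, Thrb was listed for PDX1 in all 4 PDX1 lists and Thra in 1. Thrb had its highest PDX1 peak at chr14:17983701-17984250, with 58.5, 65.1, 53.1 (rank 178 of 8339) and 46.6 tags (rank 107 of 8095), again in the order WT control, WT with IL-1β, Bmal1-/- control and Bmal1-/- with IL-1β. The p65 values there were 32.1 in WT and 19.8 in Bmal1-/- cells with IL-1β. In WT control cells p65 was listed at another Thrb site, with 7.25 tags. Thra had p65 at 42.2 tags in WT and 13.1 in Bmal1-/- cells with IL-1β at one site, and at 5.02 in WT control cells at another. PDX1 was listed at Thra in WT control cells only, with 14.8 tags 79 bp outside the gene, and SIN3A was listed there with 20.6 (siCon) and 17.2 tags (siPdx1). At the p65 site of 42.2 tags SIN3A had 14.5 (siCon) and 21.4 tags (siPdx1).

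Vdr, which encodes the vitamin D receptor, was 1 of 2 members with a p65 peak in Bmal1-/- cells with IL-1β and none in WT cells with IL-1β. That peak had 18.9 tags (rank 3102 of 16162) and lay 17882 bp from the start. At the same site PDX1 had 15.2 tags in these cells and 9.88 in WT cells with IL-1β. Another site, nearer the start, had PDX1 at 13.1 tags in WT control and 10.5 in WT cells with IL-1β. PDX1 had no Vdr peak in Bmal1-/- control cells. SIN3A was listed 113 and 122 bp from the start of Vdr, with 15.5 (siCon) and 13.2 tags (siPdx1).

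The peroxisome proliferator-activated receptors bind fatty acids and their derivatives. Ppard held 2 strong p65 sites inside the gene. At chr17:28253183-28253666 p65 had 115.1 tags in WT cells (rank 549 of 31389) and 57.5 in Bmal1-/- cells with IL-1β, PDX1 had 16.0 in WT control, 27.5 in WT with IL-1β and 16.3 in Bmal1-/- control, and SIN3A 11.9 and 14.9 with siCon and siPdx1. At chr17:28252406-28252636 p65 had 82.6 tags in WT and 58.3 in Bmal1-/- cells with IL-1β and no other protein was listed. PDX1 was not listed at Ppard in Bmal1-/- cells with IL-1β, and p65 was in neither control list.

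Ppara, the regulator of fatty acid oxidation, had p65 at 47.3 tags in WT and 16.8 in Bmal1-/- cells with IL-1β, 25434 and 25461 bp upstream of the gene. A stronger p65 peak, of 83.3 tags in WT and 24.7 in Bmal1-/- cells with IL-1β, lay 55515 and 55520 bp from Ppara, just outside the 50 kb limit, and is not counted. Just inside the limit were the PDX1 peaks 49698 bp (11.3 tags, WT control) and 49693 bp (9.88 tags, WT with IL-1β) from Rxra.

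Pparg, the regulator of adipocyte formation and the target of thiazolidinedione drugs, had SIN3A peaks near a pair of its starts. They had 17.4 and 19.3 tags with siCon and 19.7 and 24.0 with siPdx1. The windows of 250 bases before to 50 after these starts are given because both hold a SIN3A peak and the hexamer AGGTCA, the core of many receptor binding sites. Sequences, here and below, are from RefSeq (GRCm38.p6, the assembly of mm10) on the strand of the gene, 5′ to 3′, and capitals mark the bases under the named peak, here that of SIN3A with siCon. The windows are chr6:115360894-115361193 and chr6:115362099-115362398, both on the plus strand.
Pparg, first window: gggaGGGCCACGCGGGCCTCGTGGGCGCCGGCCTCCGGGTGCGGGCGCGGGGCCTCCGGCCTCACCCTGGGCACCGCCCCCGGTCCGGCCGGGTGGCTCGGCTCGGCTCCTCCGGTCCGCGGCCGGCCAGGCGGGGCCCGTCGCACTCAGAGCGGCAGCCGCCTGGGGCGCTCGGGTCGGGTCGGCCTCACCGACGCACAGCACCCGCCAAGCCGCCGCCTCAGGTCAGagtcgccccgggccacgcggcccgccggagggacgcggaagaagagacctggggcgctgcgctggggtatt
Pparg, second window: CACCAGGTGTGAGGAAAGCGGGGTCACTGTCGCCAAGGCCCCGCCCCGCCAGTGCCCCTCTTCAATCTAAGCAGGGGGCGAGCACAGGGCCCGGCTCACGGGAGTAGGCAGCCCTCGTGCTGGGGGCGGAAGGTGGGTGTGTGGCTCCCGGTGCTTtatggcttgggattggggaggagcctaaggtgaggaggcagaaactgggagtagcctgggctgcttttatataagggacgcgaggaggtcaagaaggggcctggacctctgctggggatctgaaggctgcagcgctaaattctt
AGGTCA begins at position -28 from the start in the first window, under the peak, and at -9 in the second, beyond the capitals. PDX1 had 6 and 9 peaks at Pparg in WT cells without and with IL-1β, up to 14.1 and 13.4 tags, and none in Bmal1-/- cells. The gene was also listed for p65 in WT and not in Bmal1-/- cells with IL-1β.

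Among the sterol and xenobiotic receptors, Nr1i2, which encodes the pregnane X receptor for drugs and bile acids, carried a single PDX1 site, chr16:38293130-38293602, in all 4 PDX1 lists. It had 53.2 tags in WT control, 54.9 in WT with IL-1β, 29.2 in Bmal1-/- control and 21.6 in Bmal1-/- with IL-1β, 1456 to 1490 bp from the start. Its p65 peak at that site was listed only in Bmal1-/- cells with IL-1β. Nr1h4, which encodes the bile acid receptor FXR, had PDX1 at chr10:89532565-89533020 with 8.31 (WT control), 11.5 (WT with IL-1β) and 14.4 tags (Bmal1-/- with IL-1β). Its highest PDX1 peaks in WT cells, of 15.6 (control) and 20.7 tags (IL-1β), were at chr10:89533539-89533765, a site in neither Bmal1-/- list. No PDX1 peak was listed at Nr1h4 in Bmal1-/- control cells.

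Nr1h2, which encodes the oxysterol receptor LXRβ, had the highest SIN3A peak of all members, with 63.1 tags with siCon (rank 262 of 13109) and 68.9 with siPdx1 (rank 317 of 14653), 144 and 167 bp from its start, and no p65 or PDX1 peak. Its relative Nr1h3 was listed for PDX1 in WT control cells alone. Of the 5 genes of this class 1 had a p65 peak in WT cells with IL-1β, where 45.9% of all genes had one.

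The 13 orphan receptor genes, which have no agreed natural hormone, all had a p65 peak in WT cells with IL-1β, and 11 had one in Bmal1-/- cells with IL-1β. Among all genes the shares were 45.9% and 32.8%, and among the 5201 long genes 78.7% and 59.6%. Most of the 13 genes are shorter than those long genes, from 7.85 kb (Nr2f6) to 41.4 kb (Nr4a3). The long genes are therefore not a match for this class by length. Nr5a2, which encodes LRH-1, a phospholipid-binding factor of pancreas and liver, led with 70.2 tags in WT and 39.9 in Bmal1-/- cells, 94004 and 93975 bp from the nearest start. Nr2f6, a member of the COUP-TF group of mostly repressive receptors, had 52.3 and 19.8 tags 825 and 845 bp upstream of the gene. Nr2e3, known from photoreceptors, had 52.1 and 18.5 tags 1419 and 1512 bp downstream. None of these p65 sites was listed in either control list.

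Nr4a3 and Nr4a2 are immediate early receptors that are known to act without a ligand. Nr4a3 had p65 at 42.0 tags in WT and 11.8 in Bmal1-/- cells with IL-1β, 1906 and 1957 bp from the start. Nr4a2 had p65 at 11.0 tags in WT cells with IL-1β and none in Bmal1-/- cells. SIN3A had 31.6 (siCon) and 38.0 tags (siPdx1) at Nr4a2, 9364 and 9297 bp from the annotated start.

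Nr2e1, known from neural stem cells, had p65 at 34.7 tags in WT and 7.94 in Bmal1-/- cells with IL-1β, 8234 and 8202 bp upstream, and at 5.21 tags in WT control cells at another site, 35799 bp upstream. PDX1 peaks at the orphan receptors reached 21.9 tags in WT cells, at Nr5a2 with IL-1β (17.4 in control). Of the 13 genes 10 had a PDX1 peak in each WT list, 1 in Bmal1-/- control cells (Nr5a2, 12.1 tags) and 2 in Bmal1-/- cells with IL-1β (Nr2c1 with 19.2 tags, and Nr2c2), against 41.9% and 41.4% of all genes in the WT lists and 16.5% and 16.1% in the Bmal1-/- lists. Nr2f2, Nr2f6 and Nr5a1 had no PDX1 peak in any list. Nr5a1, the steroidogenic factor of adrenal and gonad, had p65 at 18.3 tags in WT cells with IL-1β, outside the gene.

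Nr6a1, an orphan receptor of germ cells and early embryos, had p65 peaks of 20.9 tags in WT and 7.24 in Bmal1-/- cells with IL-1β on the window of an annotated start, beside SIN3A of 25.8 tags with siCon. Its window, chr2:38926412-38926711 on the minus strand, is given as a start listed for both p65 and SIN3A, with the bases under the p65 peak of WT cells with IL-1β in capitals.
Nr6a1: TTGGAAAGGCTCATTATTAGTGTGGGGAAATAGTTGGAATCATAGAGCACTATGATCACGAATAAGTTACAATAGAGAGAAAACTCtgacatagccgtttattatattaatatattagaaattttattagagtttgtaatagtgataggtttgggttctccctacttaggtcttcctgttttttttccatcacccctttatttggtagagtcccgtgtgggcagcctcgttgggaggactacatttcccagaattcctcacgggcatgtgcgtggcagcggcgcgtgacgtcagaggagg
The highest p65 peaks of Nr6a1 were elsewhere, with 23.9 tags in WT and 15.2 in Bmal1-/- cells with IL-1β, 8987 and 8925 bp from a start. Its highest SIN3A peaks, of 32.9 (siCon) and 33.2 tags (siPdx1), lay 440 and 469 bp upstream of the gene and formed 1 site with the p65 peak of the window.

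Nr0b1 and Nr0b2 lack the DNA-binding domain and are known as repressors that bind other nuclear receptors. Nr0b2, which encodes SHP, the bile acid induced repressor, is the shortest member and had a PDX1 peak on its promoter, with 10.1 tags in WT control cells and 8.26 with IL-1β. It had no PDX1 peak in Bmal1-/- cells and no p65 or SIN3A peak. Its window, chr4:133553126-133553425 on the plus strand, is given as the only receptor window with a PDX1 peak in both WT lists (peak centres 233 and 174 bp from the start), with the bases under the peak of WT control cells in capitals.
Nr0b2: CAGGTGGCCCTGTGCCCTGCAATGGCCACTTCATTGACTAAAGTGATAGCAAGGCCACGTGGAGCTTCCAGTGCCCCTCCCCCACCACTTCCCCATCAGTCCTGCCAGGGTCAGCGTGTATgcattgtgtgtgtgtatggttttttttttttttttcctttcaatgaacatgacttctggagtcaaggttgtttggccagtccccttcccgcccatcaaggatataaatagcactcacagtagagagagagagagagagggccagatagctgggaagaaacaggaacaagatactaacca
The homeobox core TAATTA, on either strand, is not in this window.

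The first comparison asked which receptor genes had p65 with and without IL-1β. In WT cells 7 genes were listed in both conditions (Esr1, Esrrb, Esrrg, Nr2e1, Rarg, Thra and Thrb), against 8.02% of all genes. A further 23 were listed with IL-1β alone, against 37.9% of all genes, and 0 in control cells alone, against 0.964%. At the level of peaks, 7 of the 108 p65 peaks at receptor genes with IL-1β overlapped a control peak (6.48%, interval 3.17 to 12.8), while 5.07% of the whole list did. In the other direction 7 of the 11 control peaks overlapped a peak of the IL-1β list (63.6%, interval 35.4 to 84.8; whole list 50.4%). Control p65 peaks at receptor genes had 3.72 to 12.5 tags and p65 peaks with IL-1β 3.74 to 154.9. With peaks of at least 8-fold over input in both lists 1 of 69 was shared (1.45%), and with both lists limited to their 3157 best scored peaks 0 of 10. Whole-list shares under these limits were not computed.

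Between genotypes with IL-1β, 23 receptor genes had p65 in both, against 30% of all genes. Those listed in WT alone were Esr2, Hnf4g, Nr3c2, Nr4a2, Pparg, Rara and Rxrg (7 genes, against 16.0%), and those in Bmal1-/- alone Nr1i2 and Vdr (2 genes, against 2.79%). Of the 108 WT peaks 50 overlapped a Bmal1-/- peak (46.3%, interval 37.2 to 55.7; whole list 40.7%), and of the 63 Bmal1-/- peaks the same count made 79.4% (whole list 79.1%). Strong peaks were shared more: 41 of the 60 WT peaks above the list's median tag count (68.3%) and 9 of the other 48 (18.8%), against 68.2% and 13.9% of all peaks.

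For PDX1 in WT cells, 27 receptor genes were listed without and with IL-1β, against 34.7% of all genes. Nr1h3 and Thra were listed in control cells alone (2 genes, against 7.22%) and 0 with IL-1β alone (against 6.72%). Of 121 control peaks 70 overlapped a peak of the IL-1β list (57.9%, interval 48.9 to 66.3; whole list 60.1%). Above the median tag count 50 of 60 did (83.3%, whole list 83.3%), and at or below it 20 of 61 (32.8%, whole list 37.8%).

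In control cells, PDX1 was listed at 10 receptor genes in both genotypes: Esr1, Esrrb, Esrrg, Nr1i2, Nr5a2, Ppard, Rarb, Rxra, Rxrg and Thrb, against 16.0% of all genes. Another 19 were listed in WT alone, against 25.9%, and 0 in Bmal1-/- alone, against 0.457%. With IL-1β the 10 genes in both genotypes were Esr1, Esrrb, Esrrg, Nr1h4, Nr1i2, Nr2c1, Nr2c2, Rarb, Thrb and Vdr, against 15.6%. With IL-1β 17 were listed in WT alone, against 25.8%, and 0 in Bmal1-/- alone, against 0.512%.

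Of the 121 WT control peaks 21 overlapped a Bmal1-/- control peak (17.4%, interval 11.6 to 25.1; whole list 19.1%), and of the 116 WT peaks with IL-1β 24 overlapped a Bmal1-/- peak with IL-1β (20.7%, interval 14.3 to 28.9; whole list 18.7%). Conversely, all 21 Bmal1-/- control peaks at receptor genes and 24 of the 25 with IL-1β overlapped a WT peak of the same treatment (100% and 96.0%; whole lists 91.6% and 89.9%). With both lists limited to the number of peaks in the shorter, the WT peaks shared were 16 of 20 in control cells (80.0%) and 14 of 21 with IL-1β (66.7%). The whole-list share under this limit was not computed, so these values are not read as a trait of receptor genes. With a reciprocal overlap of 50% the share in control cells was 0.00%, which follows from peak widths of 207 and 472 bp.

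Within Bmal1-/- cells, 6 receptor genes had PDX1 in both treatments, against 11.8% of all genes. Nr5a2, Ppard, Rxra and Rxrg were listed in control cells alone (4 genes, against 4.61%) and Nr1h4, Nr2c1, Nr2c2 and Vdr with IL-1β alone (4 genes, against 4.24%). Of 21 control peaks 14 overlapped a peak with IL-1β (66.7%, interval 45.4 to 82.8; whole list 58.8%), and 4 of 9 where each peak was at least 8-fold over input (44.4%, whole-list share not computed). The 4 genes listed with IL-1β alone had 10.5 to 19.2 tags.

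**Figure D4:**
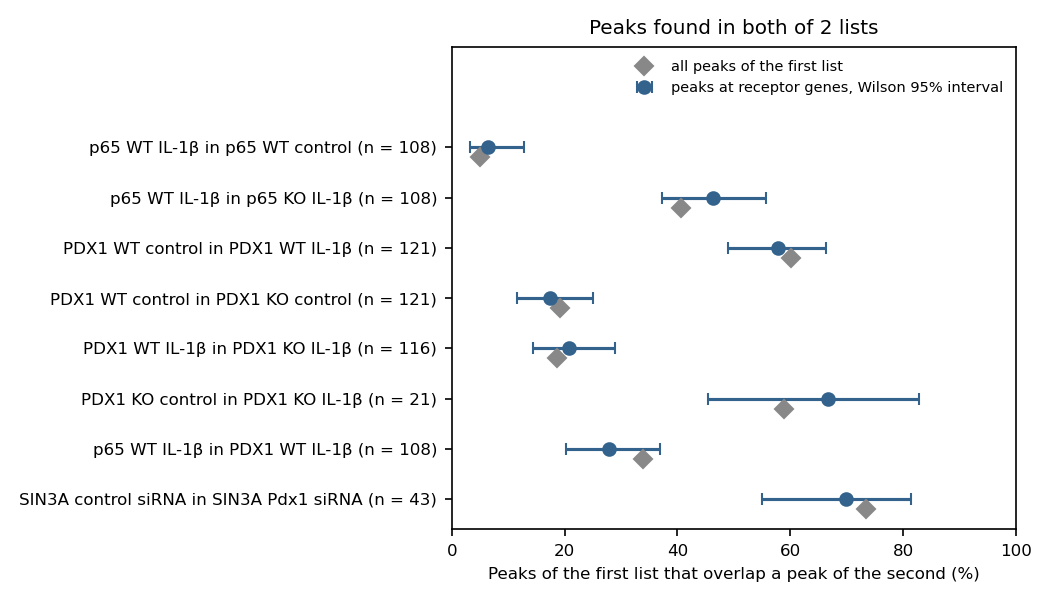
Share in percent of one list's peaks lying on a peak of another list by at least 1 bp, for peaks at receptor genes (circles with Wilson 95% intervals, n peaks in brackets) and for all peaks of the first list (diamonds). KO is Bmal1-/-. The value for all peaks falls inside the interval of the receptor genes in each of the 8 comparisons. Peaks of 1 gene are not independent, so the intervals may be too narrow.

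In WT cells with IL-1β, 24 receptor genes had both p65 and PDX1, against 31.9% of all genes. Nr2f2, Nr2f6, Nr5a1, Rara, Rarg and Thra had p65 alone (6 genes, against 14.1%), and Nr0b2, Nr1i2 and Vdr PDX1 alone (3 genes, against 9.54%). Of 108 p65 peaks 30 overlapped a PDX1 peak (27.8%, interval 20.2 to 36.9; whole list 33.8%), and 11 of 69 where each was at least 8-fold over input (15.9%, whole-list share not computed). Both lists were called against 1 common input, per the file headers.

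SIN3A was listed at 21 receptor genes with both siRNAs, against 44.2% of all genes. Nr1h4, Ppara and Rxrb were listed with siCon alone (3 genes, against 3.26%) and Esrrb, Nr2c1 and Nr2f1 with siPdx1 alone (3 genes, against 5.79%). Only Rxrb, at 30.6 tags, was above its list's median among these 6. Of 43 siCon peaks 30 overlapped a siPdx1 peak (69.8%, interval 54.9 to 81.4; whole list 73.5%). SIN3A peaks at receptor genes had a median of 14.5 tags with siCon and 14.9 with siPdx1, both below the median of their whole list (21.7 for siPdx1). Other strong SIN3A members were Ppard (21.6 and 29.7 tags with siCon and siPdx1) and Nr2f6 (25.1 and 29.2). Of the siCon peaks 5 of 43 overlapped a PDX1 peak of WT control cells (11.6%, interval 5.07 to 24.5; whole list 6.83%).

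Peaks at receptor genes made 280 sites. PDX1 alone was listed at 113 of them, p65 alone at 70 and SIN3A alone at 35. Both p65 and PDX1 were listed at 42, p65 and SIN3A at 9, PDX1 and SIN3A at 7, and all 3 proteins at 4, which lay inside Esrrb, Esrrg, Ppard and Rxra. At those of Esrrb, Esrrg and Rxra SIN3A was in a single list each, with 7.43, 5.48 and 5.15 tags. A single list held 133 sites, and 16 were in 5 or more lists. Those 16 belonged to Esr1 (3), Esrrg (3), Rarb (2), Thrb (2) and 6 genes with 1 each.

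**Figure D5:**
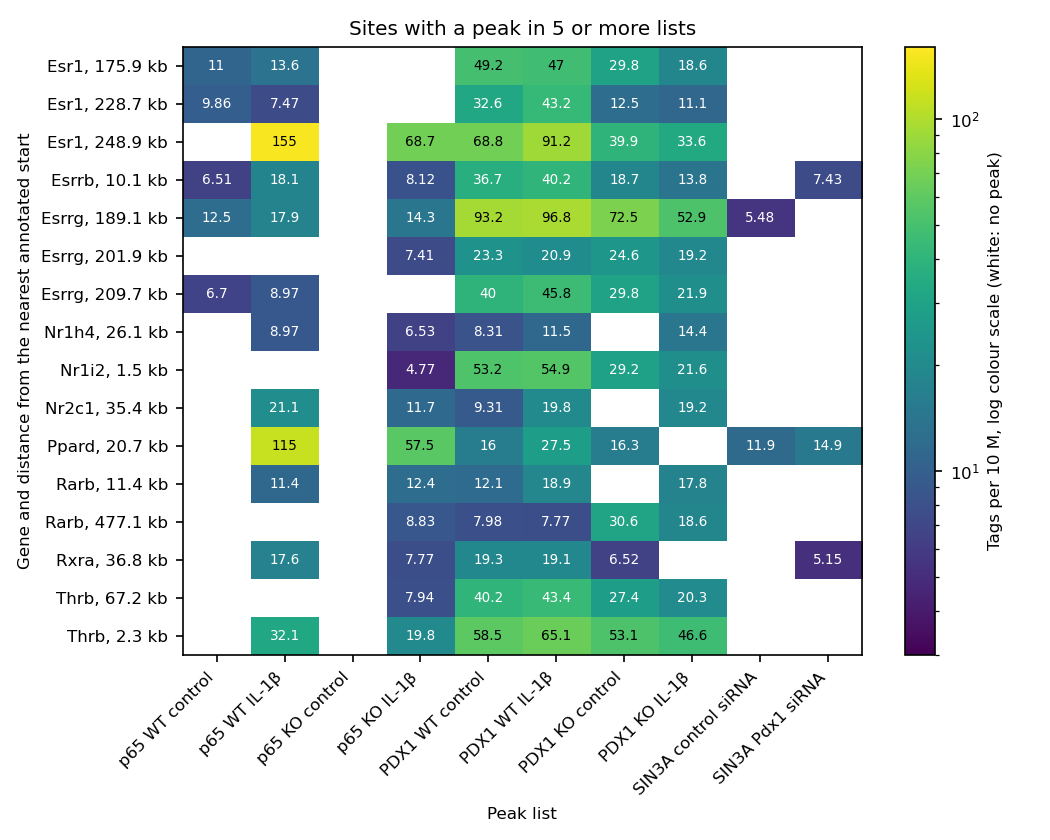
Normalised tag count (tags per 10 M, log colour scale, value in each cell) at the 16 sites with a peak in 5 or more lists, labelled with the gene and the distance to the nearest annotated start, white marking no peak. KO is Bmal1-/-. Every site has PDX1 in both WT lists, and p65 reaches 154.9 tags at Esr1 and 115.1 at Ppard.

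Positions relative to annotated starts differed by protein. SIN3A peaks lay within 1 kb of a start of the receptor gene in 21 of 38 cases with siCon (55.3%, against 77.9% in the whole list) and in 22 of 37 with siPdx1 (59.5%, against 75.3%). Shares here, of receptor genes and of whole lists, are over peaks given to a gene with an annotated start. For p65 with IL-1β the counts were 8 of 94 in WT (8.51%, against 13.2%) and 7 of 58 in Bmal1-/- cells (12.1%, against 18.5%). For PDX1 they were 7 of 115 in WT control cells (6.09%, against 4.46%), 3 of 111 with IL-1β (2.70%, against 3.75%), and 0 of 21 and 0 of 25 in Bmal1-/- cells without and with IL-1β, where the whole lists had 2.64% and 2.99%. Starts are those of the promoter windows, which were matched for 35 of the 39 genes (54 windows), Hnf4g, Nr3c1, Nr5a1 and Thra having none.

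On the promoter windows themselves, SIN3A had a peak at 13 of the 35 genes with siCon, against 27.2% of 17492 genes with a window, and at 9 with siPdx1, against 27.6%. With siCon the genes were Esrra, Esrrg, Nr1h2, Nr2f6, Nr3c2, Nr6a1, Ppara, Ppard, Pparg, Rara, Rarg, Rxrb and Vdr. Esrra, Esrrg, Nr2f6, Nr3c2, Pparg, Rara, Rarg and Vdr were also listed with siPdx1, together with Nr2c1. In WT cells with IL-1β p65 peaks overlapped windows of Nr2c2, Nr4a2, Nr6a1, Rara and Rxrb (5 genes, against 8.71%). In Bmal1-/- cells with IL-1β they overlapped windows of Esrrg, Nr2c2, Nr6a1 and Rarb (4 genes, against 7.22%). The p65 peaks on the windows of Rxrb (12.1 tags) and Nr4a2 (13.3 tags) were given by the nearest-gene rule to Slc39a7 and LOC105244150, so the Rxrb peak is not in the p65 counts above. PDX1 peaks overlapped windows of Esrrg, Nr0b2, Ppard and Rxra in WT control cells (4 genes, against 2.45%) and of Nr0b2 and Rarb with IL-1β (2 genes, against 2.08%).

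Short motifs were searched on both strands of the windows. An NF-κB decamer, GGG, any 2 bases and TTTCC, was in 1 of the 54 receptor windows (Esrrb, which had no p65 peak there), against 1.63% of all 32851 windows, and the form ending in TTCCC in 0, against 1.75%. Matches of these NF-κB forms overlap each other in 41 of all windows. TAATTA was in 0 receptor windows, against 5.29%, and AGGTCA in 11, against 16.3%. Of the 25 receptor windows under a peak of any list, 3 held AGGTCA, the pair of Pparg shown above and 1 of Rarg. A match is a run of letters and does not show binding, and its absence covers these windows only.

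Genes that work with the receptors were taken as 4 lists of 51 genes, all found in the annotation. Of 12 coregulators, which carry the receptors' effects to chromatin, 11 had p65 in WT cells with IL-1β, against 45.9% of all genes. In Bmal1-/- cells with IL-1β 6 had p65, against 32.8%. PDX1 was listed at 11 in each WT list, against 41.9% (control) and 41.4% (IL-1β). It was listed at 4 in each Bmal1-/- list, against 16.5% (control) and 16.1% (IL-1β). SIN3A was listed at all 12 with each siRNA, against 47.5% of all genes with siCon. The coactivator gene Ncoa2 had p65 at 146.3 tags in WT and 79.3 in Bmal1-/- cells with IL-1β. Ppargc1a, which encodes the PGC-1α coactivator, had highest PDX1 peaks of 47.9 and 58.9 tags in WT control and WT cells with IL-1β, at one site. Those of Bmal1-/- control (39.4 tags) and Bmal1-/- cells with IL-1β (28.8 tags) were at 2 further sites.

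All 6 chaperone genes, whose products hold steroid receptors ready for ligand, had SIN3A peaks with each siRNA, against 47.5% of all genes with siCon. Among them Hsp90ab1 had 91.2 (siCon) and 99.2 tags (siPdx1). Of these 6 genes 3 had p65 in WT cells with IL-1β, against 45.9% of all genes. Of 18 genes that make, carry or break down ligands, 10 had p65 in WT cells with IL-1β (55.6%, against 45.9% of all genes). PDX1 in WT control cells was listed at 6 of them (33.3%, against 41.9%). SIN3A with siCon was listed at 3 (16.7%, against 47.5%). Hsd11b2, which inactivates cortisol and corticosterone, had p65 at 72.7 tags in WT and 18.5 in Bmal1-/- cells with IL-1β, 8231 and 8229 bp outside the gene.

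Of 15 genes known as receptor targets, 12 had p65 in WT cells with IL-1β, against 45.9% of all genes. In Bmal1-/- cells with IL-1β 9 had p65, against 32.8%. PDX1 was listed at 9 in each WT list, against 41.9% (control) and 41.4% (IL-1β). SIN3A was listed at 8 with siCon (53.3%, against 47.5%) and at 9 with siPdx1. Plin2, the lipid droplet protein gene, had PDX1 at 50, 63.6, 27.9 and 28.5 tags in WT control, WT with IL-1β, Bmal1-/- control and Bmal1-/- with IL-1β. These Plin2 peaks lay 28317 to 28349 bp outside the gene. Abcg1, a cholesterol exporter gene and target of the oxysterol receptors, had p65 at 83.1 tags in WT and 31.4 in Bmal1-/- cells with IL-1β. Over the 4 lists, 36 of the 51 genes had a p65 peak in WT cells with IL-1β (against 45.9% of all genes), 29 a PDX1 peak in WT control cells (against 41.9%) and 29 a SIN3A peak with siCon (against 47.5%). These totals join lists that differed. For PDX1 in WT control cells and SIN3A with siCon, the ligand genes were below all genes and the other lists above. Some of the 51 genes are long, and their lengths were not examined.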

How the data were processed

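The series' 34 samples fall in 10 immunoprecipitated groups and their inputs. The submitters' processing notes name Bowtie2, HOMER and build mm10 without roles. The 10 peak lists, 1 per group, were deposited by the authors. Per the file headers, HOMER findPeaks ran in factor style with an FDR of 0.001, a minimum of 4-fold against both the input and the surrounding 10 kb, and fragments of 100 bp. Pooling of replicates is not stated there. The signal of the deposited files is the authors' normalised tag count per 10 M tags. Their score column is the findPeaks score, as deposited, and their fold column is the authors' ratio to input, as deposited. These values only describe, rank and filter peaks of a list, and score and fold are used only for the alternatives with equal list lengths and 8-fold over input. Wide peaks and high tag thresholds (34 and 32 tags for PDX1 in Bmal1-/- cells, against 20 and 22 in WT) bear on counts and overlaps.

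Peaks were given to gene bodies of the RefSeq gene table (GRCm38.p6) with python 3.11.15, pandas 2.3.3 and numpy 2.4.6, and assignment and overlap were checked on simulated data. Overlap means at least 1 bp. Promoter windows came from RefSeq (GRCm38.p6). Genes named with values were, per antibody, the 10 members with the highest tag count in WT or siRNA lists, members with p65 in control lists, members whose set of lists differed between conditions (names only below the list median), and members with a peak on a promoter window. Values of some other members and of 7 genes of the 4 further lists were chosen after they were seen. Members and lists were chosen with earlier results of these data known. The choices tried otherwise were distance, ties, fold over input, overlap and list length.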

Additional observations from a re-analysis of the deposited data

How the results depend on the processing

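Counts of receptor genes with a peak stayed within 1.5 times when peaks were taken within 20 kb, inside the gene body or without those in several gene bodies, in each of the 10 lists. At 8-fold over input or more, p65 in WT control cells had 4 genes in place of 7 and PDX1 in Bmal1-/- control cells 5 in place of 10. At that fold the shares of peaks in both lists were 1.45% (p65 with IL-1β in control, WT), 40.6% (PDX1 control in IL-1β, WT), 10.1% (PDX1 WT in Bmal1-/-, control), 44.4% (PDX1 control in IL-1β, Bmal1-/-), 15.9% (p65 in PDX1) and 54.5% (SIN3A). With equal list lengths they were 0.00% (p65 with IL-1β in control), 65.1% (p65 WT in Bmal1-/-), 80.0% and 66.7% (PDX1 WT in Bmal1-/-, control and IL-1β). A reciprocal overlap of 50% gave 0.00% (PDX1 WT in Bmal1-/-, control) and 51.2% (SIN3A), and centres within 100 bp gave 13.8% (PDX1 WT in Bmal1-/-, IL-1β) and 46.5% (SIN3A). All these shares are of peaks at receptor genes, and whole-list shares under the same settings were not computed. The 0.00% at a reciprocal overlap of 50% follows from the peak widths. For the other changed shares the cause was not tested, nor was the part of fewer peaks in them. A gap of up to 500 bp, chosen after seeing the data, left each of the 8 shares inside its interval. No paired analysis was possible because the files hold 1 peak list per group, and leaving out a replicate and a replicate block were not run for the same reason. Thresholds of 15 to 35 tags limit what could be listed, so a gene without a peak may carry fewer tags.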

Other observations

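Scd1, which encodes a fatty acid desaturase and is a known target of oxysterol receptors, carried the strongest p65 control peaks among the genes described. Inside the gene p65 had 72.7 tags in WT control cells (rank 5 of 3157 peaks) and 43.4 in Bmal1-/- control cells (rank 5 of 173), and 42.4 in WT cells with IL-1β (rank 2832 of 31389). In Bmal1-/- cells with IL-1β its highest p65 peak had 7.94 tags and lay 1713 bp outside the gene.

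Inside Rarb, 477101 to 477241 bp from the annotated start, PDX1 had 7.98 tags in WT control (rank 20065 of 40028) and 7.77 in WT cells with IL-1β (rank 22452 of 38930), and 30.6 in Bmal1-/- control (rank 1208 of 8339) and 18.6 in Bmal1-/- cells with IL-1β (rank 2229 of 8095). PDX1 peaks were 472 (control) and 418 bp (IL-1β) wide in Bmal1-/- cells, against 207 and 226 bp in WT. The Bmal1-/- peaks at this Rarb site were 4.93-fold (control) and 9.9-fold (IL-1β) over input, where the minimum was 4-fold. The part of peak width and input in these counts was not tested. Both Scd1 and this site were picked after their values were seen.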
